A study of Caenorhabditis elegans with 12 samples.

Results

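Transcripts of 10 genes that encode the enzymes of lower glycolysis and lactate dehydrogenase were followed in *atfs-1* mutant *Caenorhabditis elegans*. The genes were *gpd-1*, *gpd-2*, *gpd-3*, *gpd-4*, *pgk-1*, *ipgm-1*, *enol-1*, *pyk-1*, *pyk-2* and *ldh-1*, chosen by their WormBase names, and all 10 were found among the 46739 genes of the deposited count table and passed the filter on low counts in both comparisons. RNA was sequenced from whole worms labelled as the fourth larval (L4) stage and grown at 20 °C. The sample labels give OP50 as the *E. coli* food strain, whereas the study's methods name HT115 for its worms, so the food of these samples is uncertain. *atfs-1(null)* worms, which lack the *atfs-1* open reading frame, were compared with the wild-type strain N2 of experiment 1, and *atfs-1(et18)* worms, which carry an amino acid substitution in the mitochondrial targeting sequence of ATFS-1, were compared with the N2 of experiment 2. Each of the 4 groups had 3 libraries. ATFS-1 is the transcription factor of the mitochondrial unfolded protein response (UPRmt), and the *et18* allele keeps this response on without stress. No stress or treatment was applied, and each mutation was present in every cell of the animal. Whether the mutant strains differed from N2 at genes other than *atfs-1* was not tested.

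Lower glycolysis begins with glyceraldehyde 3-phosphate and ends with pyruvate. Glyceraldehyde 3-phosphate dehydrogenase (GAPDH) reduces NAD+ to NADH, phosphoglycerate kinase and pyruvate kinase make ATP, and lactate dehydrogenase oxidizes NADH again when pyruvate is not taken up by mitochondria. *C. elegans* has 4 GAPDH genes in closely similar pairs, *gpd-1* with *gpd-4* and *gpd-2* with *gpd-3*. The pair *gpd-2* and *gpd-3* is transcribed in an operon behind *mai-1*, and the GAPDH of *gpd-2* and *gpd-3* is known mainly from body wall muscle after hatching, while that of *gpd-1* and *gpd-4* is known mainly from embryos. Reads that match both copies of a pair equally well may have been split or dropped when reads were counted, so the separate values of *gpd-1* and *gpd-4*, and of *gpd-2* and *gpd-3*, are uncertain within each pair.

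Total counts per library were between 24090660 and 37050803. *atfs-1* itself had 27, 22 and 19 counts in *atfs-1(null)* libraries, against 1558, 1104 and 1425 in wild type, which checks the label of that strain. Counts were expressed as CPM, the reads of a gene per 1000000 reads of a library after correction with edgeR's TMM factors, separately in each experiment. Mutant and wild-type libraries of an experiment were compared by the quasi-likelihood test of edgeR. Replicates were not paired in these fits, except where a replicate block is named. The labels give replicate numbers but do not say that same-numbered libraries belong together. A gene was called changed at an adjusted p (Benjamini-Hochberg over all genes tested) under 0.05. Replicate 3 of *atfs-1(null)* and replicate 2 of *atfs-1(et18)* stood apart from the other libraries of their groups. Chi-square values per gene were 141 and 147 for the pairs with replicate 3 of *atfs-1(null)* and 115 and 123 for the pairs with replicate 2 of *atfs-1(et18)*, against 10.1 to 37.4 for all other pairs of replicates. In whole worms, fewer cells of a type and less RNA per cell cannot be told apart. The summed levels of oocyte, sperm and yolk genes were each higher in *atfs-1(null)* than in wild type, as described with the marker genes. The L4 label was the only record of stage used here. The fold changes compare groups that may differ in developmental stage or germline content, and such a difference and the genotype cannot be told apart. The study describes its replicates as biologically independent.

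The level of each gene was compared per length as RPKM, the CPM per kilobase of exon. Ranks and shares in RPKM depend on the exon lengths listed, which were 3949 bases for *pyk-1*, 1726 for *pyk-2* and 1104 for *ldh-1*. Without division by length, these genes had 457, 143 and 135 CPM in wild type of experiment 1. *enol-1* had the highest level of the 10 genes in all 4 groups, with 328 ± 12.3 RPKM in *atfs-1(null)* and 625 ± 22.7 RPKM in its wild type, and with 712 ± 42.2 RPKM in *atfs-1(et18)* and 459 ± 24.2 RPKM in its wild type (SD, n = 3 each). *gpd-2* and *gpd-3* came next in every group. In both wild types *gpd-2* and *gpd-3* overlapped each other, at 401 and 412 RPKM in experiment 1 and at 334 and 351 RPKM in experiment 2. They were followed by *pgk-1*, *ipgm-1*, *ldh-1*, *pyk-1* and *pyk-2*, in this order in both wild types, with *ldh-1* and *pyk-1* overlapping in both and *pgk-1* and *ipgm-1* overlapping in experiment 1. In *atfs-1(et18)*, *gpd-2* overlapped *gpd-3* and *ldh-1* overlapped *pgk-1*. *gpd-1* and *gpd-4* were lowest in both wild types and in *atfs-1(et18)*, and overlapped each other there. In *atfs-1(null)* the order differed: *gpd-1* was the seventh gene at 60.9 ± 24.1 RPKM and overlapped *pyk-1* above and *ldh-1* below it, and *gpd-4*, at 36.97 ± 12.9 RPKM, overlapped *pyk-2* at 39.0 ± 2.92 RPKM. *gpd-2* overlapped *pgk-1*, and *ipgm-1* overlapped *pyk-1*.

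**Figure D1:**
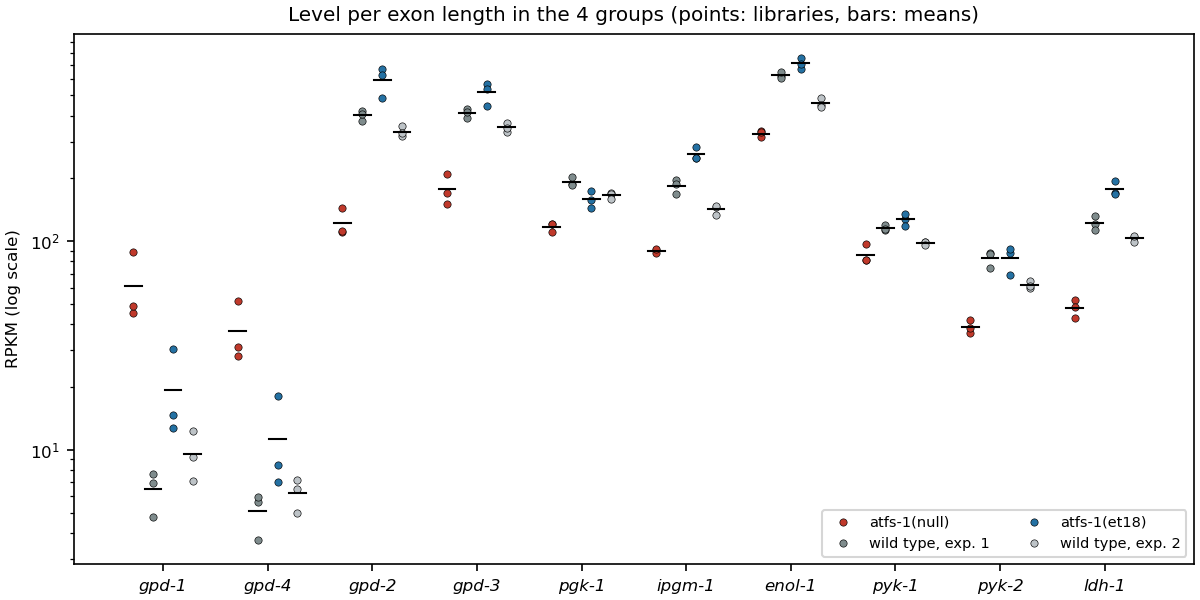
RPKM on a log scale (counts per kilobase of exon per 1000000 scaled counts) of the 10 genes, with 3 libraries per group as points and group means as bars; each mutant stands left of its own wild type. *gpd-1* and *gpd-4* lie below 13 RPKM in all wild-type libraries and above 28 RPKM in all *atfs-1(null)* libraries, while *enol-1* has the highest mean in each group.

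In *atfs-1(null)* worms the 2 scarce GAPDH genes, *gpd-1* and *gpd-4*, rose and the other 8 genes fell. *gpd-1* rose 9.40-fold and *gpd-4* 7.27-fold, whereas the lower levels ranged from 0.304 of wild type for *gpd-2* to 0.745 of wild type for *pyk-1*. Of all genes tested, 68.3% changed in this comparison, 32.9% higher and 35.4% lower. The median log2 fold change was -0.98 over the 10 genes and -0.04 over all genes tested. The libraries of *atfs-1(null)* and wild type did not overlap for any of the 10 genes, as for 74.2% of all genes tested, with *atfs-1(null)* above in 34.5% and below in 39.7%. The 10 genes together had 1807 ± 96.0 CPM in *atfs-1(null)* and 3379 ± 142 CPM in wild type (SD, n = 3 each), and the groups did not overlap (exact two-sided permutation p = 0.1, the smallest that 3 against 3 libraries allow).

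*gpd-1* (WBGene00001683), a GAPDH gene on the forward strand of chromosome II from 10394114 to 10395348 (WBcel235), had 51.2, 55.5 and 101 CPM in replicates 1 to 3 of *atfs-1(null)*, against 8.75, 7.89 and 5.41 CPM in wild type. These came from 1722, 1932 and 3406 reads in *atfs-1(null)* and 288, 211 and 157 reads in wild type. Replicate 3 of *atfs-1(null)* was the highest library by far, and the lowest library of *atfs-1(null)* still lay above every wild-type library. The log2 fold change was 3.23 ± 0.32 (SE, edgeR adjusted p = 0.000323), and 2.85 without replicate 3 of *atfs-1(null)*. *gpd-4* (WBGene00001686), its close copy on the same strand of chromosome II from 10171270 to 10172496, had 31.7, 35.0 and 58.4 CPM in *atfs-1(null)*, against 6.32, 6.69 and 4.17 CPM in wild type. It was highest in the same library as *gpd-1*, and its log2 fold change was 2.86 ± 0.30 (SE, edgeR adjusted p = 0.000353), and 2.53 without that library.

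*gpd-2* (WBGene00001684), on the reverse strand of chromosome X from 3113434 to 3114771, had 178, 137 and 139 CPM in *atfs-1(null)*, against 523, 467 and 505 CPM in wild type. This was the largest fall of the 8 genes, with a log2 fold change of -1.72 ± 0.13 (SE, edgeR adjusted p = 0.000191). *gpd-3* (WBGene00001685) lies 51 bases from it on the same strand, from 3112083 to 3113382, and had 252, 205 and 182 CPM in *atfs-1(null)*, against 517, 471 and 499.5 CPM in wild type. All *atfs-1(null)* libraries of both genes were below all wild-type libraries, and *gpd-3* changed by -1.22 ± 0.13 (log2, SE, edgeR adjusted p = 0.000378). When reads of each close pair were summed before the fit, *gpd-1* with *gpd-4* rose by 3.08 and *gpd-2* with *gpd-3* fell by 1.45 on the log2 scale (edgeR adjusted p = 0.000323 and 0.000248), so these directions do not depend on how reads were divided within a pair. The 4 GAPDH genes together fell to 397 ± 33.5 RPKM in *atfs-1(null)*, against 824 ± 42.4 RPKM in wild type (SD, n = 3 each, exact two-sided permutation p = 0.1).

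*mai-1*, the first gene of the operon, which encodes a relative of the mitochondrial ATPase inhibitor, shares 90 exon bases with *gpd-2* on the same strand, 7.24% of the *gpd-2* exons. It had 7.05, 6.04 and 7.30 CPM in *atfs-1(null)*, against 10.8, 10.1 and 11.5 CPM in wild type, a log2 fold change of -0.67 ± 0.17 (SE, edgeR adjusted p = 0.0100). Its level was thus much lower than those of *gpd-2* and *gpd-3* and also fell.

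*pgk-1* (WBGene00020185, chromosome I from 3867541 to 3869133, forward strand) encodes phosphoglycerate kinase, the first ATP-producing enzyme of the pathway. It had 175, 160 and 174 CPM in *atfs-1(null)*, against 270, 268 and 292 CPM in wild type, and fell by 0.71 on the log2 scale (SE 0.089, edgeR adjusted p = 0.000601). *ipgm-1* (WBGene00019001, chromosome I from 6569494 to 6572600, forward strand) encodes a phosphoglycerate mutase that needs no bisphosphoglycerate cofactor, a form that mammals lack. It had 173, 167 and 175 CPM in *atfs-1(null)*, against 375, 320 and 360 CPM in wild type, and fell by 1.03 (SE 0.094, edgeR adjusted p = 0.000267). *enol-1* (WBGene00011884, chromosome II from 8930985 to 8933799, forward strand) encodes enolase, which forms phosphoenolpyruvate. It had 545, 507 and 536 CPM in *atfs-1(null)*, against 1002, 975 and 1047 CPM in wild type, and fell by 0.93 (SE 0.076, edgeR adjusted p = 0.000212). For these 3 genes the replicates of *atfs-1(null)* lay close together, and replicate 3, which stood apart for *gpd-1* and *gpd-4*, did not stand apart.

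The 2 pyruvate kinase genes, whose enzymes make pyruvate and ATP from phosphoenolpyruvate, fell by unequal amounts. *pyk-2* (WBGene00014001, chromosome IV from 10909915 to 10913079, forward strand) had 72.7, 62.7 and 66.5 CPM in *atfs-1(null)*, against 152, 128 and 150 CPM in wild type. Its log2 fold change was -1.09 ± 0.11 (SE, edgeR adjusted p = 0.000339). Over 204 exon bases, 11.8% of its exons, *pyk-2* is overlapped by ZK593.11 on the opposite strand, which had 0 or 1 count in every library. *pyk-1* (WBGene00009126, chromosome I from 9168432 to 9177497, forward strand) had 320, 319 and 381 CPM in *atfs-1(null)*, against 472, 446 and 453 CPM in wild type, and its log2 fold change of -0.43 ± 0.099 was the smallest of the 10 (SE, edgeR adjusted p = 0.00722). The call for *pyk-1* was lost without replicate 1 of *atfs-1(null)* (edgeR adjusted p = 0.0600) and without replicate 2 of *atfs-1(null)* (edgeR adjusted p = 0.0669). It was also lost under DESeq2, with -0.32 (adjusted p = 0.115), and when libraries were scaled by their size alone, with -0.18 (edgeR adjusted p = 0.0972).

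*ldh-1* (WBGene00002262, chromosome II from 11725325 to 11726532, forward strand) encodes lactate dehydrogenase, which converts pyruvate to lactate. It had 57.9, 47.2 and 53.2 CPM in *atfs-1(null)*, against 133, 125 and 145 CPM in wild type. Every *atfs-1(null)* library was below every wild-type library, and the log2 fold change was -1.35 ± 0.12 (SE, edgeR adjusted p = 0.000241), the second largest fall after *gpd-2*.

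**Figure D2:**
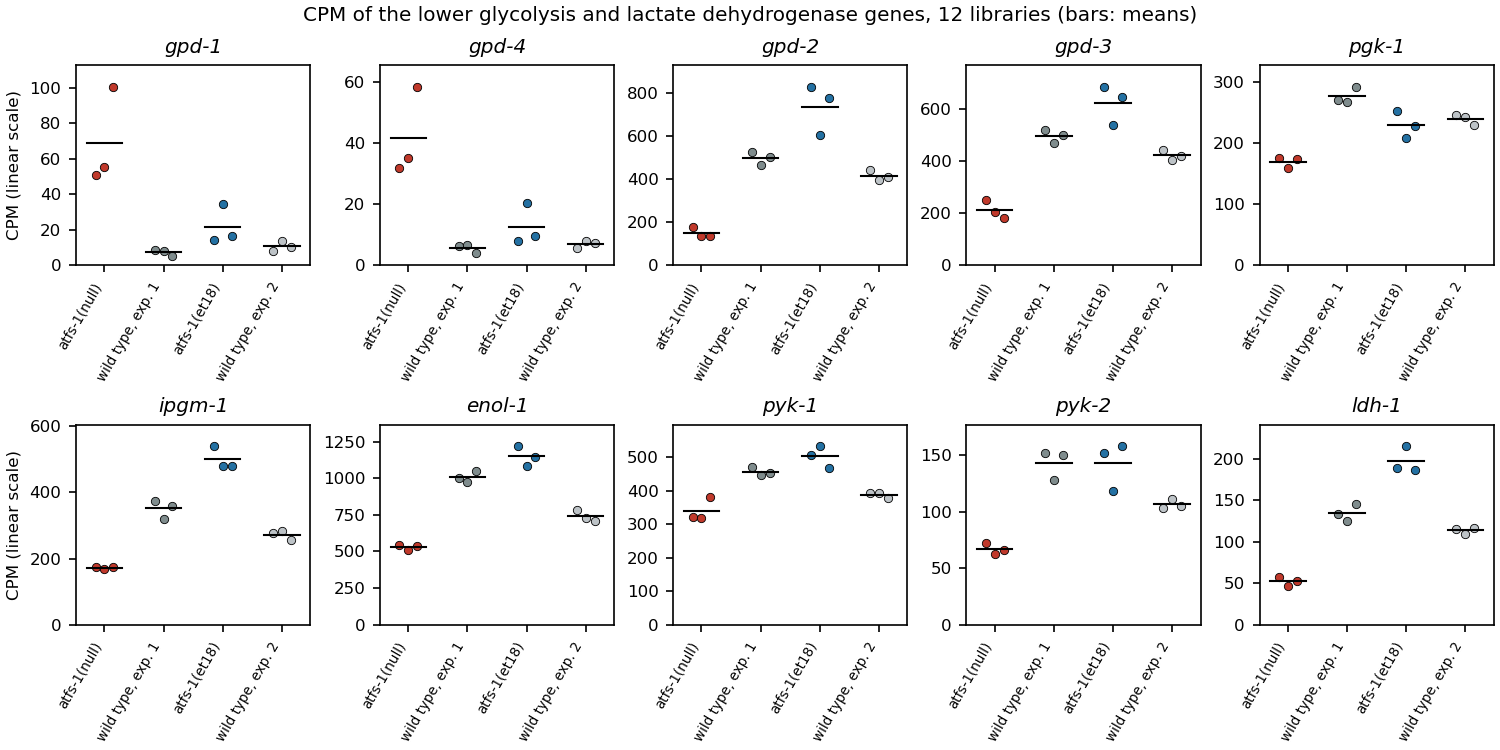
CPM (linear axes from 0, a different scale in each panel) of each gene in the 12 libraries, with replicates 1 to 3 from left to right as points and group means as bars. In the panels of *gpd-1* and *gpd-4* the *atfs-1(null)* libraries lie highest; in the other 8 panels they lie below all libraries of their wild type, and *atfs-1(et18)* lies above its wild type without overlap in 8 panels, those of *gpd-4* and *pgk-1* excepted.

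In *atfs-1(et18)* worms 6 genes rose, none fell and 4 did not pass in the unpaired test. The 6 were *gpd-2*, *gpd-3*, *ipgm-1*, *enol-1*, *pyk-1* and *ldh-1*, at 1.29-fold to 1.84-fold of wild type. Of all genes tested, 16.9% changed in this comparison, 9.42% higher and 7.51% lower. The median log2 fold change was 0.71 over the 10 genes and 0.07 over all genes tested. All *atfs-1(et18)* libraries lay above all wild-type libraries for 8 of the 10 genes, and the other 2 genes overlapped. Of all genes tested, 42.5% did not overlap, with *atfs-1(et18)* above in 22.9% and below in 19.6%. The count of 6 was 7 without replicate 2 of *atfs-1(et18)*, 4 without replicate 1 or replicate 3 of *atfs-1(et18)* or without replicate 1 or replicate 2 of wild type, and 3 without replicate 3 of wild type. The 10 genes together had 4113 ± 279 CPM in *atfs-1(et18)* and 2716 ± 91.6 CPM in wild type (SD, n = 3 each, exact two-sided permutation p = 0.1).

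*gpd-2* had 828, 602 and 776 CPM in replicates 1 to 3 of *atfs-1(et18)*, against 441, 397 and 409 CPM in wild type. Its log2 fold change was 0.82 ± 0.13 (SE, edgeR adjusted p = 0.0101), and the adjusted p was 0.0546 without replicate 3 of wild type. *gpd-3* had 685, 537 and 644 CPM in *atfs-1(et18)*, against 444, 403 and 421 CPM in wild type. Replicate 2 of *atfs-1(et18)* was the lowest mutant library for both genes but lay above all wild-type libraries, and *gpd-3* changed by 0.56 ± 0.11 (log2, SE, edgeR adjusted p = 0.0187). The *gpd-3* call was lost with 5 of the 6 libraries left out in turn, every one but replicate 2 of *atfs-1(et18)*, with adjusted p between 0.0605 and 0.0834, although the log2 fold change stayed between 0.47 and 0.66. The sum of *gpd-2* and *gpd-3* reads rose by 0.70 on the log2 scale (edgeR adjusted p = 0.0132), and the 4 GAPDH genes together had 1139 ± 143 RPKM in *atfs-1(et18)* and 701 ± 31.2 RPKM in wild type (SD, n = 3 each, exact two-sided permutation p = 0.1). *mai-1* had 15.6, 12.7 and 11.5 CPM in *atfs-1(et18)*, against 15.3, 10.3 and 11.3 CPM in wild type, and these overlapped (log2 fold change 0.11, 95% interval -0.39 to 0.60, edgeR adjusted p = 0.742).

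*gpd-1* had 14.5, 34.6 and 16.7 CPM in *atfs-1(et18)*, against 8.06, 14.0 and 10.5 CPM in wild type. Replicate 2 was the highest library of both groups, and *gpd-1* did not pass the test, with a log2 fold change of 1.01 (95% interval 0.10 to 1.93, edgeR adjusted p = 0.116). With the replicate number as a block, which treats same-numbered libraries as pairs, the log2 fold change was 0.94 (edgeR adjusted p = 0.0220). In each numbered pair the *atfs-1(et18)* library was the higher for *gpd-1*. Without replicate 2 of *atfs-1(et18)* the log2 fold change was 0.53, and DESeq2 gave 0.99 (adjusted p = 0.0462). *gpd-4* had 7.88, 20.5 and 9.58 CPM in *atfs-1(et18)*, against 5.59, 8.05 and 7.35 CPM in wild type. Replicate 2 was again the highest, the groups overlapped, and the log2 fold change of 0.86 (95% interval -0.07 to 1.78) did not pass (edgeR adjusted p = 0.170). In each numbered pair the *atfs-1(et18)* library was the higher for *gpd-4* too. With the replicate block its log2 fold change was 0.75, which did not pass either (edgeR adjusted p = 0.0867).

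*ipgm-1* had 540, 480 and 478 CPM in *atfs-1(et18)*, against 279, 282 and 256 CPM in wild type, the largest rise of the 6 genes (log2 fold change 0.88 ± 0.084, SE, edgeR adjusted p = 0.00187). *enol-1* had 1220, 1084 and 1144 CPM in *atfs-1(et18)*, against 784, 728 and 709 CPM in wild type, and rose by 0.64 ± 0.080 (log2, SE, edgeR adjusted p = 0.00483). *ldh-1* had 188, 215 and 186 CPM in *atfs-1(et18)*, against 116, 110 and 117 CPM in wild type, and rose by 0.78 ± 0.085 (log2, SE, edgeR adjusted p = 0.00285). These 3 genes stayed past the threshold with any single library left out. *pgk-1*, between GAPDH and the mutase in the pathway, had 252, 209 and 228 CPM in *atfs-1(et18)*, against 245, 242 and 229 CPM in wild type. The groups overlapped, and the log2 fold change of *pgk-1* was -0.06 with a 95% interval from -0.27 to 0.16 (edgeR adjusted p = 0.679).

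*pyk-1* had 506, 534 and 469 CPM in *atfs-1(et18)*, against 393, 394 and 378 CPM in wild type. The rise of 0.37 ± 0.076 (log2, SE, edgeR adjusted p = 0.0219) was the smallest of the 6, and the call was lost with any library but replicate 2 of *atfs-1(et18)* left out, with adjusted p between 0.0511 and 0.105. *pyk-2* had 152, 118.8 and 158 CPM in *atfs-1(et18)*, against 103, 111 and 105 CPM in wild type. Its groups did not overlap, but its log2 fold change of 0.43 (95% interval 0.14 to 0.72) missed the threshold (edgeR adjusted p = 0.0572). Without replicate 2 of *atfs-1(et18)*, the lowest mutant library for *pyk-2*, the log2 fold change was 0.55 (edgeR adjusted p = 0.00226).

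**Figure D3:**
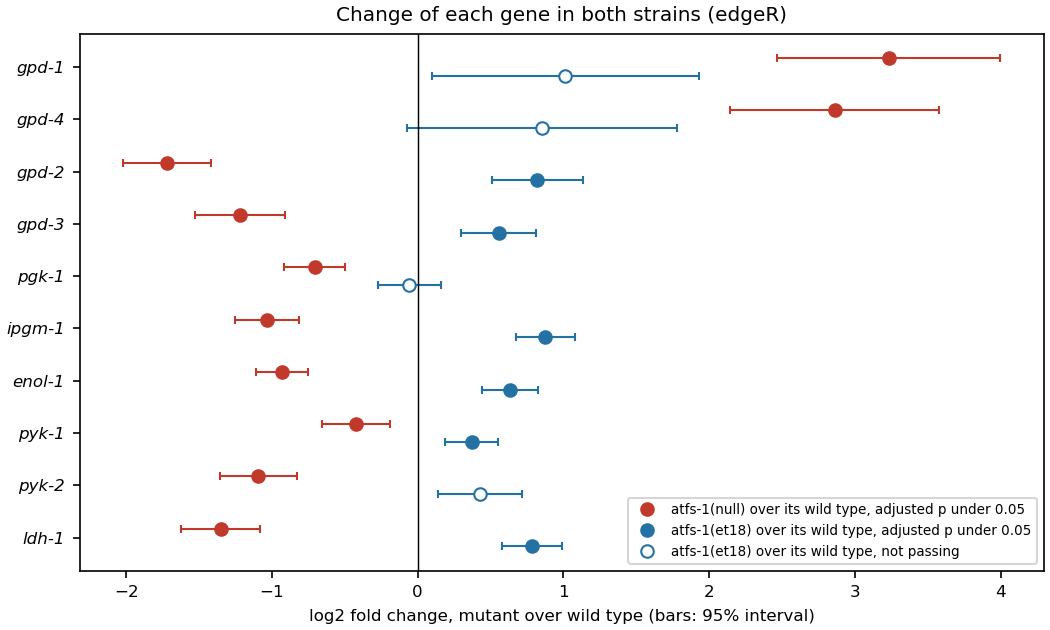
Log2 fold change of each gene, mutant over its own wild type, with its 95% interval, for *atfs-1(null)* (red, above) and *atfs-1(et18)* (blue, below). Open circles did not pass an adjusted p of 0.05 in the unpaired fit. In *atfs-1(null)*, *gpd-1* and *gpd-4* lie at 3.23 and 2.86 and the other 8 genes between -1.72 and -0.43, while in *atfs-1(et18)* 9 of the 10 values are above 0 and *pgk-1* is at -0.06.

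The difference between the effects, that of *atfs-1(et18)* minus that of *atfs-1(null)*, was tested in 1 fit of all 12 libraries. All 10 genes passed, and 49.0% of all genes tested passed, 26.1% higher and 22.9% lower. For 8 genes the effect of *atfs-1(et18)* was the higher, with differences on the log2 scale of 2.501 ± 0.19 for *gpd-2*, 2.09 ± 0.16 for *ldh-1*, 1.87 ± 0.14 for *ipgm-1*, 1.74 ± 0.16 for *gpd-3* and 1.52 ± 0.12 for *enol-1* (SE). *pyk-2*, *pyk-1* and *pgk-1* had smaller differences of 1.48, 0.75 and 0.61. For *gpd-1* and *gpd-4* the difference had the opposite sign, -2.28 ± 0.54 and -2.07 ± 0.52 (SE, edgeR adjusted p = 0.00599 and 0.00848). These 2 genes rose in *atfs-1(null)* and did not pass the unpaired test in *atfs-1(et18)*. With the replicate block *gpd-1* passed there (edgeR adjusted p = 0.0220) and *gpd-4* did not (edgeR adjusted p = 0.0867). Each strain had an experiment of its own, so effects of strain and of experiment cannot be told apart here. The wild types differed as well: *enol-1* had 1008 ± 36.6 CPM in experiment 1 and 740 ± 39.0 CPM in experiment 2 (SD, n = 3 each), in experiments that were scaled separately, and this difference was not tested.

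Ratios of paralogs within a library do not depend on how libraries are scaled. Per exon base, *gpd-2* had 3.18, 2.26 and 1.26 times the counts of *gpd-1* in *atfs-1(null)*, against 54.5, 53.9 and 84.9 times in wild type. The mean log2 ratio of *gpd-1* over *gpd-2* was thus 4.92 higher in *atfs-1(null)* than in wild type. *gpd-1* and *gpd-4* together made up 17.2, 22.2 and 34.8% of the GAPDH RPKM in *atfs-1(null)*, against 1.54, 1.65 and 1.02% in wild type. Within the close pairs the shifts were smaller: the log2 ratio of *gpd-1* over *gpd-4* was 0.36 higher in *atfs-1(null)*, and that of *gpd-2* over *gpd-3* was 0.49 lower. The log2 ratio of *pyk-1* over *pyk-2* was 0.66 higher in *atfs-1(null)*, and *pyk-2* gave 31.2 ± 2.83% of the pyruvate kinase RPKM in *atfs-1(null)* and 41.7 ± 1.88% in wild type (SD, n = 3 each). All 7 ratios computed in this strain separated the groups without overlap, each with an exact two-sided permutation p of 0.1, the smallest possible, and an adjusted p of 0.175 over the 14 ratios of both strains.

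In *atfs-1(et18)* only the ratio of *gpd-2* over *gpd-3* separated the groups among the 7 computed, with a log2 ratio 0.26 higher than in wild type (exact two-sided permutation p = 0.1, adjusted p = 0.175). *gpd-2* had 1.17, 1.09 and 1.17 times the counts of *gpd-3* per exon base in *atfs-1(et18)*, against 0.963, 0.953 and 0.941 times in wild type. *gpd-1* and *gpd-4* together made up 1.57, 4.97 and 1.97% of the GAPDH RPKM in *atfs-1(et18)*, against 1.64, 2.89 and 2.27% in wild type, and the groups overlapped. The log2 ratio of *gpd-1* over *gpd-3* was -5.48, -3.87 and -5.18 in *atfs-1(et18)*, against -5.70, -4.76 and -5.24 in wild type, higher in each numbered pair though the groups overlapped, while *gpd-1* over *gpd-2* was higher in 1 of the 3 pairs. *pyk-2* gave 39.4 ± 5.07% of the pyruvate kinase RPKM in *atfs-1(et18)* and 38.5 ± 0.908% in wild type (SD, n = 3 each). Replicate 2 of *atfs-1(et18)* had both the largest share of *gpd-1* and *gpd-4*, at 4.97%, and the smallest share of *pyk-2*, at 33.7%, of the 3 libraries of its group.

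**Figure D4:**
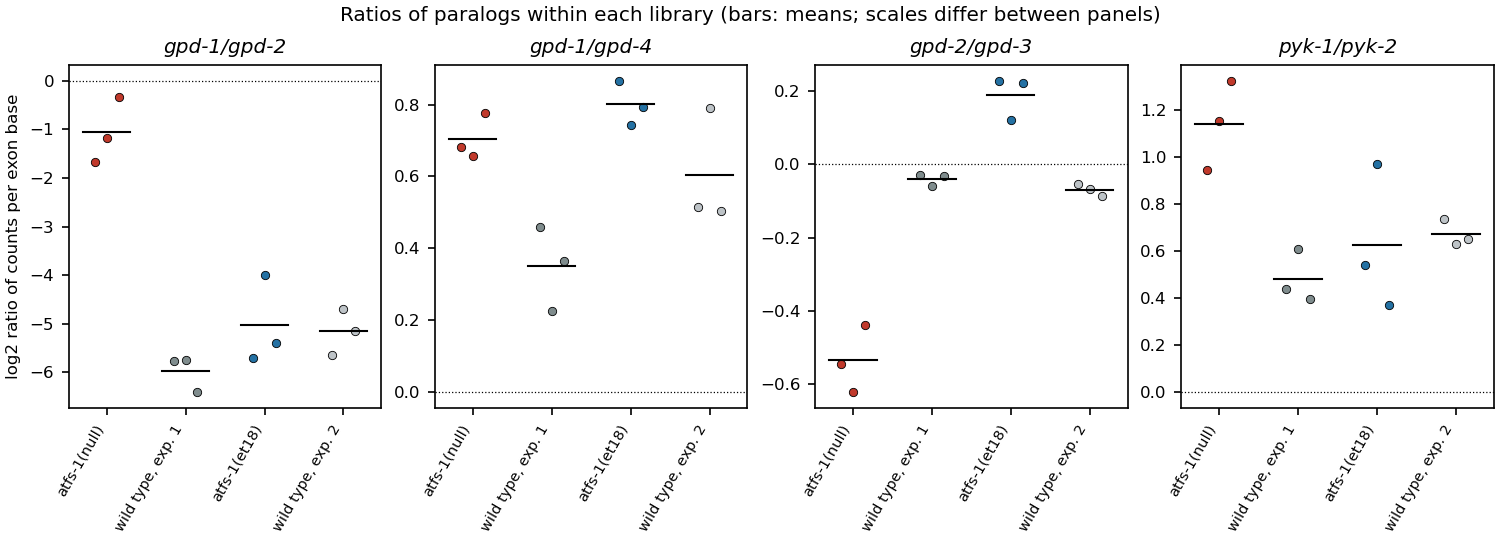
Log2 ratio of counts per exon base of 4 paralog pairs in each library (points, replicates 1 to 3 from left to right; bars, group means; the vertical scale differs between panels and the dotted line is equality). The ratio *gpd-1/gpd-2* has means of -1.06 in *atfs-1(null)* and -5.98 in its wild type, and *gpd-2/gpd-3* lies below wild type in *atfs-1(null)* and above wild type in *atfs-1(et18)*.

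The rest of glucose metabolism was read from 22 other genes of upper glycolysis, gluconeogenesis and pyruvate entry into mitochondria. In *atfs-1(null)*, 4 rose, 16 fell and 2 did not pass, with a median log2 fold change of -0.86. Of all genes tested there, 32.9% rose and 35.4% fell, with a median of -0.04. By step, 2 rose and 6 fell of 9 genes of upper glycolysis, 1 rose and 4 fell of 5 genes of gluconeogenesis, and 1 rose and 6 fell of 8 genes of pyruvate entry. *hxk-1*, one of the hexokinases that commit glucose to the pathway, had the largest rise, 2.33 ± 0.21 (log2, SE, edgeR adjusted p = 0.000273), and *mpc-1*, a subunit of the mitochondrial pyruvate carrier, the largest fall, -1.28 ± 0.11 (SE, edgeR adjusted p = 0.000218). In *atfs-1(et18)*, 6 rose, 1 fell and 15 did not pass, with a median of 0.18. Of all genes tested there, 9.42% rose and 7.51% fell, with a median of 0.07. The count of 6 in the list was 1 without replicate 1 or replicate 3 of wild type. It was 3 without replicate 2 of wild type or without replicate 1 or replicate 3 of *atfs-1(et18)*. The largest rise was that of *aldo-1*, a fructose-bisphosphate aldolase (1.28 ± 0.077, SE, edgeR adjusted p = 0.000515). The only fall was that of *pck-1*, a phosphoenolpyruvate carboxykinase of gluconeogenesis (-0.92 ± 0.087, SE, edgeR adjusted p = 0.00175).

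The genes whose pattern was most like that of *gpd-1* and of *gpd-2* were sought among 13661 genes, by the root mean square difference of log2 CPM over the 12 libraries after each value was centred on its own wild type. The nearest to *gpd-1* were DY3.8 (0.15), *cyp-31A2* (0.16), a cytochrome P450 needed for the eggshell, and *let-99* (0.17), which positions the spindle in early embryos. *gpd-4* was at 0.23, and the next of the 10 genes, *pyk-1*, was at 1.82. The nearest to *gpd-2* were T10B10.8 (0.11), F54E2.1 (0.11) and Y22D7AL.10 (0.12), and of the 10 genes *ldh-1* (0.25), *gpd-3* (0.28) and *ipgm-1* (0.37). By this measure *gpd-2* was closer to *ldh-1* than to its own operon partner, and far from *gpd-1*.

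Levels of cell type marker genes were described in the same libraries. The summed level of 8 oocyte genes (among them *oma-1*, *puf-5* and *rme-2*) was 2693, 3145 and 5616 CPM in replicates 1 to 3 of *atfs-1(null)*, against 393, 300 and 181 CPM in wild type. All 8 rose, as did 32.9% of all genes tested in *atfs-1(null)*. The library with the highest sum was the one with the highest *gpd-1* and *gpd-4*. In *atfs-1(et18)* the oocyte sum was 433, 1707 and 540 CPM, against 338, 567 and 403 CPM in wild type. None of the 8 passed there without pairing. With the replicate block, added after seeing the data for the marker lists, 3 of the 8 rose (*puf-5*, *rme-2* and *egg-1*). Of the 15639 genes tested there, 1473 rose without the block and 1674 with it. The oocyte sum was the higher in *atfs-1(et18)* in each numbered pair. Replicate 2, highest for *gpd-1* and *gpd-4*, was again the library with the highest oocyte sum. None of the 8 oocyte genes was at 0 in any group. Across the 12 libraries the order of *gpd-1* CPM followed the order of the oocyte sum within each group. The order of *gpd-4* did so in every group but wild type of experiment 1, with 6.32, 6.69 and 4.17 CPM in replicates 1 to 3. The part of germline RNA in the rise of *gpd-1* and *gpd-4* was not tested. Of the genes named *msp-* for the major sperm protein, 27 of the 28 tested of 31 rose in *atfs-1(null)*. Their sums were 1274, 1440 and 596 CPM in replicates 1 to 3, against 159, 166 and 68.8 CPM in wild type. Replicate 3 of *atfs-1(null)*, highest for the oocyte sum, *gpd-1* and *gpd-4*, was thus the lowest of its group for the sperm sum. In *atfs-1(et18)* none of the 28 passed with or without the block, with 196 to 872 CPM against 190 to 430 CPM. The 6 vitellogenin genes, whose yolk proteins are made in the adult intestine, all rose in *atfs-1(null)* (11128 to 31287 CPM against 696 to 2237 CPM). In *atfs-1(et18)* their sum was 5388, 21939 and 3296 CPM in replicates 1 to 3, against 1821, 7519 and 1348 CPM in wild type, higher in each numbered pair. None of the 6 passed there without pairing, and 3 rose with the block (*vit-2*, *vit-5* and *vit-6*). 6 early embryo genes, *end-1*, *end-3* and *pes-10* among them, summed to at most 0.776 CPM in any library, below the filter, and 2 of them were at 0 in every library of each wild type.

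**Figure D5:**
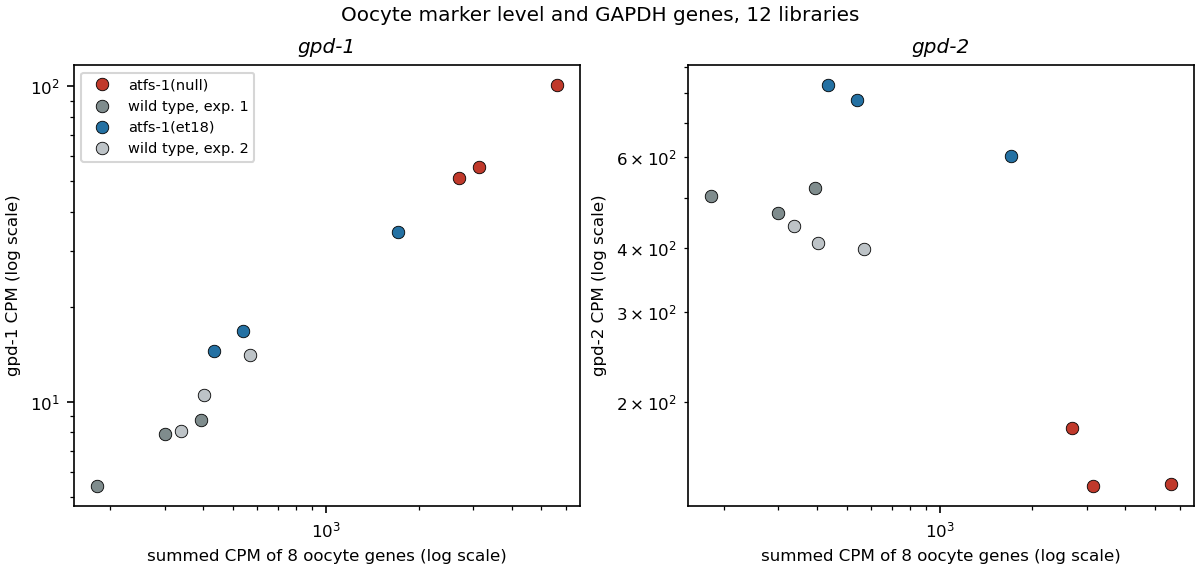
CPM of *gpd-1* (left) and *gpd-2* (right) against the summed CPM of 8 oocyte genes, both on log scales, with 1 point for each of the 12 libraries. The *atfs-1(null)* libraries have oocyte sums of 2693 to 5616 CPM and the highest *gpd-1*; replicate 2 of *atfs-1(et18)*, at 1707 CPM, has the highest *gpd-1* outside *atfs-1(null)*, and *gpd-2* there is at 602 CPM, above every wild-type library.

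In *atfs-1(null)* some or all marker genes of each of 4 somatic tissues fell, as did 35.4% of all genes tested. In *atfs-1(et18)*, 9.42% of all genes tested rose and 7.51% fell without the block. With it, 1674 of the 15639 genes tested rose and 1528 fell. All 9 body wall muscle genes, *unc-54*, *myo-3* and *unc-15* among them, fell in *atfs-1(null)*, with sums of 8927 to 11570 CPM against 17185 to 18023 CPM in wild type. In *atfs-1(et18)* 7 of the 9 muscle genes also fell, and all 9 with the block, with 13165 to 15332 CPM against 18632 to 20903 CPM in wild type. By contrast, 6 of the 10 genes of lower glycolysis and lactate dehydrogenase rose in those worms, or 7 with the block. Of 5 intestinal genes, *ges-1*, *ifb-2* and *elt-2* among them, 4 fell in *atfs-1(null)* (1275 to 1491 CPM against 4180 to 5406 CPM) and 1 rose in *atfs-1(et18)*, or 2 with the block (2527 to 3145 CPM against 2371 to 2902 CPM). Of 4 hypodermal genes, *dpy-7*, *rol-6* and *sqt-3* among them, 2 fell in *atfs-1(null)* (825 to 1714 CPM against 1779 to 2608 CPM) and none passed in *atfs-1(et18)*, while 3 fell with the block (769 to 1912 CPM against 1795 to 2676 CPM). Of 4 neuronal genes, *rab-3*, *unc-119* and *snb-1* among them, 3 fell in *atfs-1(null)* (161 to 167 CPM against 202 to 225 CPM) and none passed in *atfs-1(et18)* with or without the block (179 to 207 CPM against 185 to 206 CPM). No gene of these 4 lists was at 0 in every library of a group, and the part of these tissues in the lower levels of the 8 genes in *atfs-1(null)* was not tested.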

How the data were processed

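RNA was sequenced from 12 libraries of whole L4 worms with single reads of 50 bases. The authors aligned reads to WBcel235 and deposited raw counts per gene with no normalization, in a table that also gives exon coordinates and, as another value, the exon length of each gene. The submitters' processing notes name STAR 2.5.3a, featureCounts of Subread 1.5.2 and edgeR 3.10.0. The handling of strand and of multi-mapping reads and the annotation release are not given in the sources used here. Groups and replicate numbers came from the labels, and 0 columns of counts were left unmapped.

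The 10 genes and all lists were chosen with earlier results of these data known. Counts were tested with edgeR 4.0.16 (R 4.3.3): TMM scaling, the default filter (minimum count 10, minimum total 15), quasi-likelihood test, and a Benjamini-Hochberg threshold of 0.05 across the genes tested. SE were taken from the F statistic, and 95% intervals from its degrees of freedom. Biological coefficients of variation were 0.234 and 0.242 in experiments 1 and 2. CPM and RPKM were computed from the deposited counts and lengths, and paralog ratios with 0.5 added to each count. Positions and exon overlaps are those of the deposited table. The fits were also run on simulated data. Those had far fewer changed genes than *atfs-1(null)* and no library that stood apart, so they do not check the fits under such conditions.

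Replicate numbers come from the labels. Deviations of same-numbered libraries from their group means correlated at 0.65, 0.52 and 0.10 in experiment 2, and at -0.02, 0.54 and 0.33 in experiment 1. The numbers were treated as pairs in experiment 2 and not in experiment 1. Libraries of different numbers were not compared in this way, and the labels do not say that same-numbered libraries belong together. Whether the libraries of either experiment were paired is thus uncertain, and values with the block rest on that choice.

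Alternatives were DESeq2 1.42.0, scaling by library size alone or by upper quartiles, TMM without the *msp-*, *vit-* and the 10 genes, no filter or at least 1 CPM in 3 libraries, robust estimation, all 12 libraries in 1 fit, a replicate block (for the marker lists, added after seeing the data), summed close pairs, other pseudocounts (1 or none) and raw counts in the ratios, and leaving out each library in turn. Named genes were the 10, *atfs-1*, *mai-1* and genes overlapping a member, the genes of the 22-gene list with the largest rise and fall in each strain, the 3 nearest to *gpd-1* and to *gpd-2* in pattern (average log2 CPM of at least 0), and 3 of each marker list.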

Additional observations from a re-analysis of the deposited data

How the results depend on the processing

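In *atfs-1(null)*, 2 higher and 7 or 8 lower genes were found under all 15 alternatives, where only *pyk-1* lost its call, and in the difference between the strains 8 higher and 2 lower genes were found under every alternative run. Scaling by library size alone moved the median over all genes in *atfs-1(null)* to 0.21 on the log2 scale, against -0.04 with TMM, and upper-quartile scaling moved it to -0.20, so changes of that size depend on the scaling. The genes called in *atfs-1(null)* were then 6244 higher and 4190 lower by library size, against 5134 and 5530 with TMM. In *atfs-1(et18)* upper-quartile scaling gave 1075 higher and 1583 lower, against 1473 and 1175 with TMM, and moved the median over all genes to -0.04, against 0.07. For the difference between the strains, library size gave 3637 higher and 5069 lower, against 4220 and 3705 with TMM. In *atfs-1(et18)* the number of higher genes ranged from 3 to 7 with a library left out and from 4 to 7 under the other settings. The genes called over the whole table there ranged from 833 to 4524 with a library left out, against 2648 with all. Under upper-quartile scaling *gpd-3* (0.45, edgeR adjusted p = 0.0558) and *pyk-1* (0.26, edgeR adjusted p = 0.0522) lost their calls there. *pyk-2* passed when libraries were scaled by size alone (0.44, edgeR adjusted p = 0.0491) and in 1 fit of all 12 libraries (0.43, edgeR adjusted p = 0.0351). *pgk-1* ranged from -0.14 to 0.0081 with a library left out. With libraries left out in turn, the number of higher genes in the 22-gene list ranged from 2 to 4 in *atfs-1(null)* and from 1 to 9 in *atfs-1(et18)*. Log2 ratios in *atfs-1(et18)*, as the mutant minus wild type, ranged with a library left out from -0.39 to 0.46 for *gpd-1* over *gpd-2*, from -0.10 to 0.70 for *gpd-1* over *gpd-3*, from -0.62 to 0.30 for *gpd-4* over *gpd-2*, from -0.32 to 0.54 for *gpd-4* over *gpd-3* and from -0.22 to 0.083 for *pyk-1* over *pyk-2*. The cause of these changes was not tested. The replicate block, which treats same-numbered libraries as pairs, gave 7 higher genes of the 10 in *atfs-1(et18)*. The added gene was *gpd-1*, and no other call of the 10 changed. Over the 15639 genes tested there, the block gave 1674 higher and 1528 lower genes, against 1473 and 1175 without it. For the marker lists in *atfs-1(et18)*, added after seeing the data, the block gave 3 higher oocyte, 3 higher vitellogenin, 2 higher intestinal and 3 lower hypodermal genes, against 0, 0, 1 and 0 without it. In *atfs-1(null)*, where the numbers were not taken as pairs, it gave 2 higher and 8 lower genes. The lowest count behind a value of the 10 genes was that of *gpd-4*, with 121 reads in a wild-type library, and the effect of depth was not tested. The copies within a close GAPDH pair can be compared only as far as reads were assigned to the right copy, which was not tested.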
